A study of Mus musculus with 6 samples.

Results

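Genes of oxidative phosphorylation (OXPHOS) were followed through 3 stages of Myc-driven transformation in mouse pre-B cells. The members are protein-coding genes of the GENCODE vM1 annotation, chosen by symbol. They are the genes Ndufa to Ndufc, Ndufs and Ndufv with a number, Sdha to Sdhd, all Uqcr genes, Cox4 to Cox8, all Atp5 genes, and the mitochondrial genes mt-Nd, mt-Co, mt-Cytb and mt-Atp. This rule used no measured value and took 100 of the 37991 genes in the count files, 87 encoded in the nucleus and 13 in the mitochondrial genome. Complex I had 38 nuclear and 7 mitochondrially encoded members, complex II had 4 nuclear members, complex III had 8 and 1, complex IV 19 and 3, and complex V 18 and 2. Of these, 93 passed the filter on low counts and were tested, 81 nuclear and 12 mitochondrially encoded, and the other 7 (mt-Nd4l, Ndufa4l2, a second Ndufb8 entry, Cox7b2, Cox8b, Cox8c and Atp5l-ps1) held at most 4 counts in any library. A rule on symbols also takes in genes that encode no subunit, which are Cox7a2l, a factor in joining complexes into supercomplexes, Cox4nb, a subunit of the endoplasmic reticulum membrane complex, and the assembly-related Atp5s and Atp5sl.

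Polyadenylated RNA was sequenced from flow-sorted bone marrow pre-B cells with high B220, low IgM and low IgD, with 2 libraries for each stage. The labels give this gate for all stages, whereas the study's methods describe the malignant cells as B220+ and negative for IgM and IgD. Wild-type mice and premalignant mice, which carry the E{mu}Myc/+ transgene, were 4 to 6 weeks old, and malignant mice of the same transgene were 10 to 20 weeks old and had developed lymphoma. All mice were of the C57BL/6 background, and the transgene, absent only from wild type, is one in which the immunoglobulin heavy chain enhancer Eμ drives Myc in B-lineage cells. Per the study's methods, wild-type and premalignant mice were female and malignant mice were of both sexes, so that the age and sex of the mice and any difference in the gate cannot be told apart from the malignant stage. With 2 libraries a stage, an exact two-sided permutation test of a single value cannot give a p below 0.333, and calls therefore rest on edgeR's quasi-likelihood test, fitted to all genes and all 6 libraries at once.

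Oxidative phosphorylation makes ATP at the inner mitochondrial membrane. Complexes I and II pass electrons from NADH and succinate to coenzyme Q, complex III passes them on to cytochrome c, and complex IV passes them to oxygen, while complexes I, III and IV pump protons that drive the ATP synthase, complex V. Most subunits are made from nuclear genes and imported, whereas a small core of complexes I, III, IV and V is encoded by mitochondrial DNA, transcribed by its own polymerase and translated by its own ribosomes, so the complexes need products of both genomes. Myc is known as a driver of mitochondrial biogenesis in growing cells, and pre-B cells are a stage at which growth and proliferation alternate with rest.

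Counts on genes came to between 30031100 and 53453055 a library, and in every stage replicate 1 held more than replicate 2. Levels are given in CPM, a gene's counts scaled to the library size after edgeR's TMM adjustment, and levels of different genes are compared only in RPKM, which also divides by exon length. Intervals and floors reflect counting error and nothing else, because PCR duplicates carried no mark. The level of Myc, the transgene, was 33.8 and 41.4 CPM without the transgene and between 1155 and 1732 CPM with it, so no library went against its label. The summed level of 10 pre-B markers was 6549 to 7328 CPM in wild type, 3095 to 3125 CPM at the premalignant stage and 2483 to 2664 CPM at the malignant stage. Of these markers, 9 and then 10 were called lower than in wild type, against 20.3% and 24.3% of all genes tested. The surrogate light chain genes Vpreb1 and Igll1, which define early pre-B cells, were at 115 to 197 CPM in wild type, at 4.88 to 18.8 CPM in premalignant libraries and at 0.146 and 0.167 CPM in malignant replicate 1, against 4.05 and 7.56 CPM in malignant replicate 2. Summed markers of erythroid cells (7 genes) were at 384 and 1457 CPM in wild type against 63.5 to 186 in the other libraries, and those of myeloid cells (9 genes) at 991 and 2231 CPM against 71.4 to 322. Summed T cell markers (6 genes) were at 37.9 and 67 CPM in wild type and at 1.28 to 31.1 in the other libraries, and 3 plasma cell markers at 142 and 168 CPM against 47.3 to 80.1. No defining marker of these cell types was at 0 in wild type. Among T cell markers, Cd3e and Trac were at or near 0 in the other stages. Cd4 was at 48.7 and 27.8 CPM in wild type, 12.6 and 6.45 in premalignant and 0.126 and 2.4 in malignant libraries. Cd8a was at 8.54 and 5.63 CPM in wild type, 17.8 and 6.84 in premalignant and 0.23 and 6.45 in malignant libraries. The part of RNA from these cell types in the results below was not tested. In such bulk samples, fewer cells of a type and less RNA per cell cannot be told apart.

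In premalignant cells, nuclear genes of every complex were higher than in wild type. Of the 81 nuclear members tested, 61 rose and 2 were called lower, where a call needs an FDR no higher than 0.1 together with a log2 fold change of 0.5 or more in size. Of all 16683 genes tested, 39.3% were called in this comparison, 19% as higher and 20.3% as lower. The median log2 fold change of the nuclear members was 0.68, a 1.60-fold level, against -0.08 for all genes tested. Both premalignant libraries lay above both wild-type libraries for 75 of the 81 members, as they did for 36.2% of all genes tested. The number of calls depended on single libraries. It was 50 without wild type replicate 1, 29 without wild type replicate 2, 23 without premalignant replicate 1 and 21 without premalignant replicate 2, while the median stayed between 0.60 and 0.81. The 21 members called whichever of the 6 libraries was left out were Ndufa8, Ndufa9, Ndufa12, Ndufb4, Ndufb6, Ndufc2, Ndufs6 and Ndufv1 of complex I, Sdhd of complex II, Uqcr10 and Uqcr11 of complex III, Cox5a, Cox6a1, Cox6c, Cox7b and Cox8a of complex IV, and Atp5b, Atp5g1, Atp5g2, Atp5g3 and Atp5o of complex V.

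In malignant cells, 61 of the 81 nuclear members were higher than in wild type and 3 were lower, with a median log2 fold change of 0.87, or 1.83-fold. Of all genes tested, 49.2% were called in this comparison, 24.9% as higher and 24.3% as lower, and their median was -0.02. Both malignant libraries were above both wild-type libraries for 74 of the 81 members, against 35.3% of all genes tested. Leaving out a library gave between 49 and 69 members called higher, and 49 were called in each of these fits. The same 59 members were called higher in both comparisons with wild type, which share the wild-type libraries. Among the 61 higher in malignant cells, the premalignant log2 change was a median of 79.9% of the malignant one, with a range from 53.8% to 115%. Without the 4 genes that encode no subunit and the tissue isoforms Cox4i2, Cox6a2, Cox6b2 and Cox7a1, a selection made with these values known, 73 members remained, and all 73 had a log2 fold change above 0 in both comparisons with wild type.

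Between premalignant and malignant cells, edgeR called no nuclear member higher and 1 lower, Cox6b2. Of all genes tested, 6.18% were called here, 3.73% as higher and 2.45% as lower. At an unadjusted p under 0.05, 9 of the 81 nuclear members were higher, and DESeq2 also called none higher. The median log2 fold change was 0.15, against 0.04 for all genes, and the malignant libraries lay above both premalignant ones for 29 members, against 25.9% of all genes. This median was -0.048 without malignant replicate 1 and 0.18 without malignant replicate 2, and 6 and 5 members were called higher in these fits, in which the lone malignant library is taken to vary like the other stages.

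**Figure D1:**
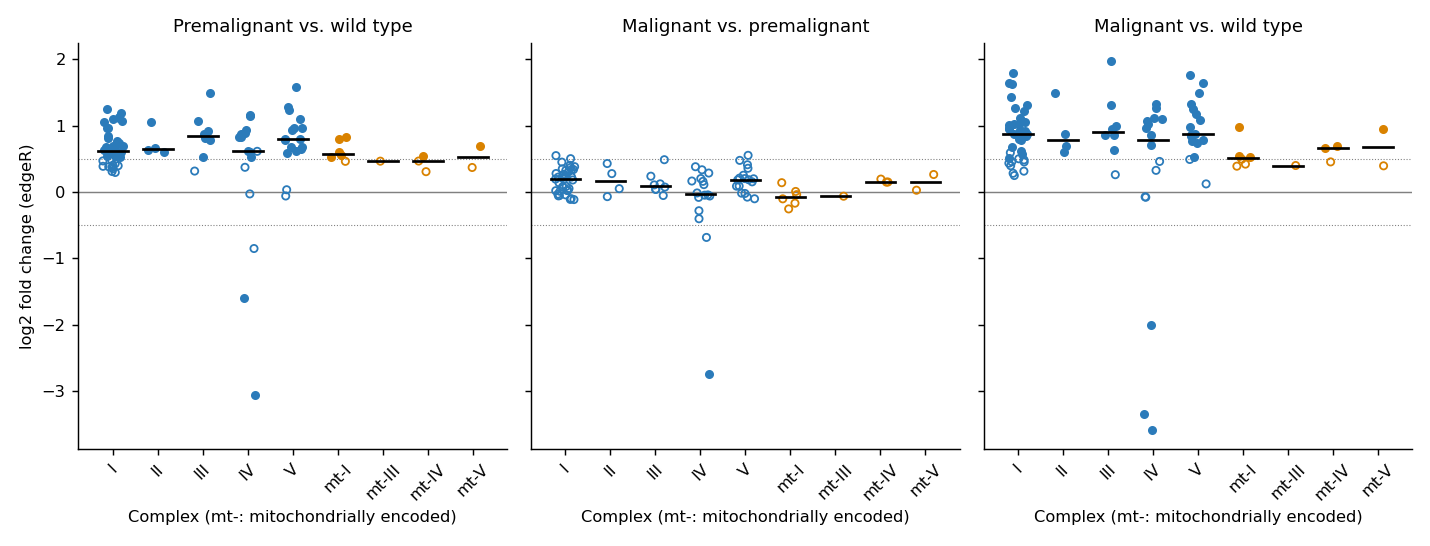
Log2 fold changes of the 93 OXPHOS genes tested, by complex, for nuclear (blue) and mitochondrially encoded genes (orange, mt-) in the 3 comparisons; filled points passed the call, bars are medians, and dotted lines mark log2 changes of 0.5 up or down. In each comparison with wild type 5 of the 81 nuclear points and none of the 12 mitochondrially encoded ones lie below 0, the lowest, at -3.06 and -3.59, are tissue isoforms of complex IV, and the middle panel is centred near 0.

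Complex I oxidises NADH and is the largest of the complexes. Of its 36 nuclear members tested, 25 rose in premalignant cells and none fell, with a median log2 fold change of 0.62, and the premalignant libraries were above the wild-type libraries for all 36. In malignant cells, 26 were higher than in wild type, with a median of 0.87. The largest rise was that of Ndufa12, an accessory subunit. Ndufa12 was at 25.5 and 21.8 CPM in wild type, 56.3 and 56 in premalignant and 70.3 and 93.8 in malignant libraries. The stages did not overlap, and the log2 fold change from wild type was 1.25 (SE 0.187, FDR 0.00625) in premalignant and 1.79 (SE 0.189, FDR 0.00132) in malignant cells. At the other end, Ndufs4 was at 44.3 and 36.3, then 49.3 and 49.5, then 57.4 and 42.7 CPM, and was not called (log2 fold change 0.29, FDR 0.291). Ndufs5 had the smallest change from wild type to malignant cells (0.25, FDR 0.252). Ndufa4, by RPKM the most abundant member here, is placed here by name only and is known to sit in complex IV. Ndufa4 rose from 105 and 72.7 to 148 and 148 CPM and was at 157 and 227 in malignant libraries, with calls in both comparisons with wild type.

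Complex II, succinate dehydrogenase, also works in the TCA cycle and has no mitochondrially encoded subunit. All 4 of its genes rose in both comparisons with wild type. The membrane anchor Sdhd led, with 87.4 and 78.1 CPM in wild type, 168 and 176 in premalignant and 239 and 224 in malignant libraries. Its stages did not overlap, although the step to malignant cells was not called (log2 fold change 0.43, SE 0.129, FDR 0.149). The rise was smallest for Sdhc in premalignant cells (0.60, SE 0.205, FDR 0.0692) and for the flavoprotein Sdha in malignant cells (0.60, SE 0.135, FDR 0.0148).

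Complex III was represented by 8 nuclear genes, 7 of which rose in each comparison with wild type, with medians of 0.84 and 0.90. Uqcr11, a small subunit on chromosome 10 (NCBIM37, 79865742 to 79869575), had the largest rise of any nuclear member in malignant cells. Uqcr11 was at 27.5 and 26.4 CPM in wild type, 76.5 and 74.4 in premalignant and 91.6 and 119.6 in malignant libraries. Again no stage overlapped another, with log2 fold changes from wild type of 1.49 (SE 0.168, FDR 0.00301) and 1.97 (SE 0.17, FDR 0.000854). The core protein Uqcrc1, the complex III gene with the highest RPKM, went from 143 and 136 CPM to 239.8 and 239 and then 282 and 222, and the malignant libraries spanned the premalignant ones. Uqcrh, the hinge protein, was not called in either comparison, at 104 and 97.5, 127 and 124, and 127 and 115 CPM.

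Complex IV, cytochrome c oxidase, had the widest spread among its members, because it holds the tissue isoforms described further on. Of 16 nuclear members tested, 10 rose and 2 were called lower in premalignant cells, and 9 rose and 3 were called lower in malignant cells against wild type, with Cox4i2, a gene of few counts, among the lower ones in both. Cox7b rose most, from 61.5 and 50.9 CPM in wild type to 127 and 125 in premalignant and 141 and 139 in malignant libraries, with close replicates at each transgenic stage (1.16, SE 0.141, FDR 0.00364 and 1.32, SE 0.142, FDR 0.00137). Cox4i1, the common form of the regulatory subunit 4, was the member of highest RPKM and was at 168 and 157, 246 and 254, and 354 and 276 CPM. Cox7a2l stayed level at 148 and 159.5, 145 and 156, and 163 and 128 CPM, and the stages overlapped.

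Complex V, the ATP synthase, had median log2 fold changes from wild type of 0.80 in premalignant and 0.88 in malignant cells, where those of complex III were 0.84 and 0.90. Its rise in summed level was the largest of the nuclear sets, since abundant genes weigh most in a sum. The summed CPM of its 18 nuclear members was 2983 and 2535 in wild type, 5433 and 5469 in premalignant and 6229 and 6286 in malignant libraries, ratios of the stage means to wild type of 1.98 and 2.27. For the nuclear genes of the other complexes, these ratios were 1.58 to 1.73 in premalignant and 1.78 to 1.85 in malignant cells, and the differences between complexes were not tested. Of 17 members tested, 15 rose in each comparison, and the other two, Atp5s and Atp5sl, encode no subunit. Atp5s was at 4.28 to 8.07 CPM and Atp5sl at 63.6 to 82.5 CPM, and neither was called. The libraries of Atp5sl overlapped between stages, whereas both malignant libraries of Atp5s, at 6.42 and 8.07 CPM, were above wild type, at 6.03 and 4.28. In the summed CPM, which is not scaled by exon length, the catalytic head had a large part. Atp5a1, its α subunit and the nuclear member with the highest RPKM, was at 781 and 679 CPM in wild type, 1362 and 1416 in premalignant and 1600.1 and 1705 in malignant libraries. Its partner Atp5b, the catalytic β subunit, was at 764 and 672, then 1719.5 and 1765, then 1971 and 2053 CPM. Both genes rose in each comparison with wild type, Atp5a1 by 0.93 and 1.18 and Atp5b by 1.28 and 1.49 on the log2 scale.

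The rotor ring of complex V is built from subunit c, and the genes Atp5g1, Atp5g2 and Atp5g3 encode the same mature protein behind different import sequences. Atp5g1 (chromosome 11, 95930166 to 95936984, NCBIM37) had the largest rise of all nuclear members in premalignant cells. Atp5g1 was at 33.5 and 30.8 CPM in wild type, 98.3 and 93.2 in premalignant and 109.7 and 107 in malignant libraries, so that replicates differed far less than stages (log2 fold change 1.57, SE 0.13, FDR 0.00182, and 1.76, SE 0.13, FDR 0.000656). By summed RPKM the main source of subunit c mRNA was nonetheless Atp5g2, with 64.4% and 64.9% in wild type, 65.9% in both premalignant libraries and 70.3% and 73.9% in malignant libraries. The share of Atp5g3 was 32.9% and 32.1%, then 30.4% and 30.5%, then 26.5% and 22.6%. Atp5g1 held no more than 3.66% in any library, so its large relative rise was a small part of subunit c mRNA. These shares depend on exon lengths of the annotation, and no test was made of them.

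Promoters are shown for 4 members that carry these results: the largest riser in each comparison with wild type (Atp5g1 and Uqcr11), Cox6a1, which rose while its tissue isoform Cox6a2 fell, and Cox6b2, which fell. The sequences are from RefSeq on GRCm38.p6, another build than that of the counts, and cover 250 bases before and 50 from the start of the gene, 5′ to 3′ on the strand of the gene. Capitals mark matches on either strand to an E-box (CACGTG, the Myc and Max type), CCGGAAG (the ETS type, bound by GABP), GCGCA and GCGC with any 1 base between them (the NRF1 type) or AAGATGGCG (the YY1 type).
Atp5g1 (chr11:96075582-96075881, minus strand): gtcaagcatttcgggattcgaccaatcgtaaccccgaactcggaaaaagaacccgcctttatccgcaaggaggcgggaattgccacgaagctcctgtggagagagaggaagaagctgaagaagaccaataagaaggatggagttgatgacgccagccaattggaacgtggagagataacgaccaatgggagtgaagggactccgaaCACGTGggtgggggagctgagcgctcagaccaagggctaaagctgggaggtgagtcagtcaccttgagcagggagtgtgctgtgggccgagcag
Uqcr11 (chr10:80406772-80407071, minus strand): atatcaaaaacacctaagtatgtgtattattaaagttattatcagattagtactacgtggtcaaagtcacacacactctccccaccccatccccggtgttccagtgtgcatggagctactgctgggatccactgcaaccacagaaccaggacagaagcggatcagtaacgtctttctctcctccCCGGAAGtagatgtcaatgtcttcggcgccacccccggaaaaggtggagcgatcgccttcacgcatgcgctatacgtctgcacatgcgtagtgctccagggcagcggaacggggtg
Cox6a1 (chr5:115348909-115349208, minus strand): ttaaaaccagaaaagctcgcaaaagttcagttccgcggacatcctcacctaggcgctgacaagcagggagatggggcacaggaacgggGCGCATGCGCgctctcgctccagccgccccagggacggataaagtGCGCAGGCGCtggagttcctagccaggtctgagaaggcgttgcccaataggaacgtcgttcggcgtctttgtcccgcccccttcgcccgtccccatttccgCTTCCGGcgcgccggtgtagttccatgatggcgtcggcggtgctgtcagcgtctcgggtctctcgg
Cox6b2 (chr7:4753045-4753344, minus strand): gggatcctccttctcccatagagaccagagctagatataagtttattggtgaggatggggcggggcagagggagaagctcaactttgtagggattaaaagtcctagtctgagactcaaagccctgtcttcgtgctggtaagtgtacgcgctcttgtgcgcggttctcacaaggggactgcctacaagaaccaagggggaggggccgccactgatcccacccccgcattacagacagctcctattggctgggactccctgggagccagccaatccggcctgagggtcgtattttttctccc

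The Atp5g1 window held 1 E-box, that of Uqcr11 held 1 ETS-type match, that of Cox6a1 held 2 NRF1-type matches and 1 of the ETS type, and that of Cox6b2 held none of the 4, with no overlap between matches. A promoter was listed for 70 of the 87 nuclear members, 6 of them with more than 1. An E-box was present in 7 of the 70 (10%), against 8.09% of the 27025 genes with a promoter. The NRF1-type motif was in 17 (24.3%, against 5.19% of all genes), the ETS type in 16 (22.9%, against 9.93%) and the YY1 type in 8 (11.4%, against 1.64%). A promoter was listed for 49 of the 59 members called higher in both comparisons with wild type, and 6 of these held an E-box, 14 the NRF1 type, 13 the ETS type and 6 the YY1 type. It was listed for 14 of the 18 tested members called higher in neither, of which 1, 2, 2 and 2 did. These counts describe letters in short windows and say nothing on binding.

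The mitochondrially encoded members also rose in premalignant cells, with a smaller median than the nuclear ones, a difference that was not tested. Of 12 that were tested, 7 rose in premalignant cells and none fell, with a median log2 fold change of 0.53, or 1.45-fold after TMM scaling. Of all genes tested, 19% were called higher in this comparison. Both premalignant libraries were above both wild-type libraries for all 12, as they were for 36.2% of all genes tested. The 12 genes lie on the same genome and were read in the same libraries, so they are not 12 independent results. In malignant cells, 6 of 12 were higher than wild type, with a median of 0.51, where 24.9% of all genes were called higher. None was called between premalignant and malignant cells by edgeR, by DESeq2 or at an unadjusted p under 0.05. The calls against wild type were fragile. With the replicate number as a further term in the fit, 5 of the 7 premalignant calls were kept. Without wild type replicate 1 or 2, 2 and 0 of the premalignant calls were left, without premalignant replicate 1 or 2 there were 1 and 0, and upper-quartile normalization gave 4. In malignant against wild type, the count was 2 without wild type replicate 2 and 10 without malignant replicate 2, and mt-Nd1 and mt-Atp6 were called in every fit.

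Among the complex I genes of mitochondrial DNA, mt-Nd1 was at 1527 and 1623 CPM in wild type, 2558 and 3051 in premalignant and 3409 and 2765 in malignant libraries (0.83, SE 0.187, FDR 0.0207, and 0.97, SE 0.188, FDR 0.00868). mt-Nd2 was at 954 and 839, then 1468 and 1637, then 1242 and 1357 CPM, with malignant libraries between the other stages, and was called in both comparisons with wild type. mt-Nd3, mt-Nd5 and mt-Nd6 rose in premalignant cells by 0.52 to 0.60, and mt-Nd3 alone of these was also called in malignant cells (0.53, FDR 0.0513). mt-Nd6 lies on the minus strand and shares 14 bases with mt-Nd5 on the plus strand. The libraries are unstranded, so counts of mt-Nd6 cannot be told apart from RNA of the opposite strand. mt-Nd4 had a log2 fold change of 0.46 and 0.42 and stayed below the limit of 0.5. The only complex III gene, mt-Cytb, was at 2564 and 2748, 3461 and 3861, and 3847 and 3149.6 CPM and was not called. In complex IV, mt-Co2 was at 2891 and 3308, 4248 and 4771, and 5636 and 4362 CPM, and was called in both comparisons with wild type (0.54 and 0.69). mt-Co3 was called in malignant cells only (0.66, FDR 0.0321), and the difference between the comparisons was not tested. mt-Co1, the catalytic core of complex IV and the most abundant member by RPKM, had the smallest premalignant difference (0.30, FDR 0.319), with 7694 and 8756, 9548 and 10770.1, and 12765 and 9736 CPM.

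In complex V, mt-Atp6, a part of the proton channel, rose from 474 and 505 CPM to 746 and 830.3 and was at 1050.0 and 839.8 in malignant libraries (0.69, FDR 0.0263, and 0.95, FDR 0.00647). mt-Atp8 was at 132 and 141, 142 and 209.6, and 224 and 134 CPM and was not called. The reading frames of these genes share 43 bases, chrM:7927-7969 on the plus strand of NCBIM37, shown here because reads from them cannot be given to one gene, with the start codon of mt-Atp6 in capitals.
mt-Atp8 and mt-Atp6: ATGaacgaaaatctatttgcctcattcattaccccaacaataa
The overlap is 43 of the 204 bases of mt-Atp8. How the counting treated such reads is not given in the sources used here. mt-Nd4l (chromosome M, 9877 to 10173) held 0 to 2 counts a library while its neighbour mt-Nd4 was at 1832 CPM or more, and it was not tested.

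By RPKM, the 12 mitochondrially encoded genes tested ranked above all nuclear members. Their median was 1272 RPKM for wild type, 1663 for premalignant and 1491 for malignant cells, against 47.8, 65.8 and 70.2 RPKM for the tested nuclear members. Selection of polyadenylated RNA reads most mitochondrial mRNA through short tails, so these levels hold for this protocol. The level of mt-Nd6 cannot be told apart from RNA of the opposite strand, so its rank is uncertain. As a share of all counts, nuclear members took 0.791% and 0.701% in wild type, 1.15% and 1.13% in premalignant and 1.25% and 1.18% in malignant libraries. The mitochondrially encoded members took 2.61% and 2.84%, then 3.09% and 3.46%, then 3.55% and 2.96%. The wild-type libraries were the lowest on both measures. Both are shares of raw counts, without the TMM factors that enter CPM and fold changes. These factors were 1.12 and 1.13 in wild type, 0.982 and 0.961 in premalignant and 0.903 and 0.929 in malignant libraries. With the highest factors in wild type, fold changes from wild type came out larger than the changes in share. There were 0.303 and 0.247 nuclear counts per mitochondrial count in wild type, 0.373 and 0.327 in premalignant and 0.352 and 0.399 in malignant libraries, so that every transgenic library exceeded both wild-type libraries. With 2 libraries a stage this order has no test that could pass a threshold of 0.05.

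**Figure D2:**
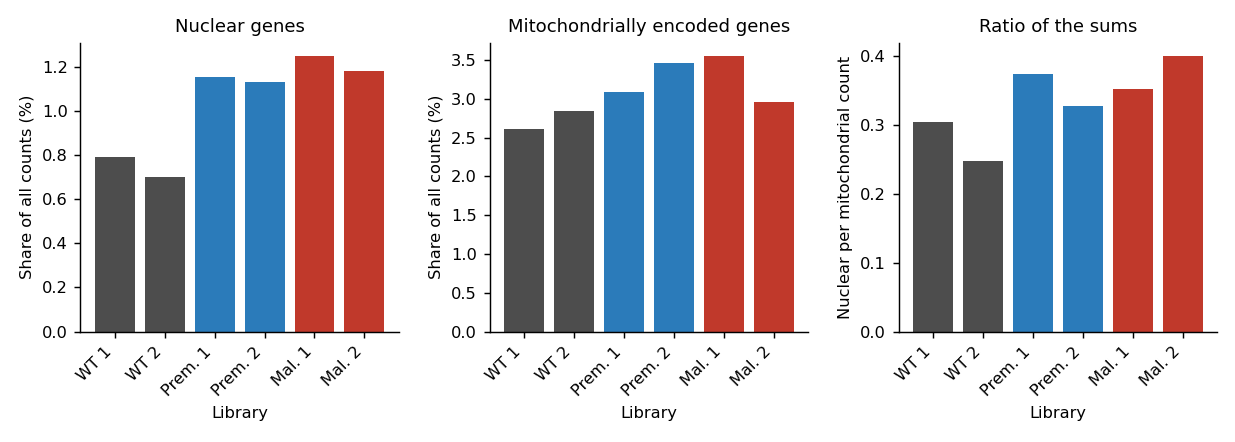
Share of all gene counts taken by the nuclear members (left) and by the mitochondrially encoded members (middle), in percent, and nuclear counts per mitochondrial count (right), 1 bar for each library with wild type (WT) in grey, premalignant in blue and malignant in red. The nuclear share is 0.701% to 0.791% in wild type and 1.13% to 1.25% in the other libraries, and the ratio is at most 0.303 in wild type and at least 0.327 elsewhere.

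Cytochrome c oxidase has subunits with tissue isoforms, in most cases a widely expressed form and a form known from muscle, lung or testis. In these cells the widely expressed forms Cox4i1, Cox6a1, Cox6b1 and Cox7a2 rose, and the restricted forms Cox6a2 and Cox6b2 fell. Cox6a2, the heart and muscle form of subunit 6a (chromosome 7, 135348950 to 135349880), was at 22.7 and 21.9 CPM in wild type, 10.3 and 4.34 in premalignant and 4.64 and 6.49 in malignant libraries. Both later stages lay below wild type and overlapped each other, with log2 fold changes of -1.60 (SE 0.433, FDR 0.0358) and -2.01 (SE 0.44, FDR 0.0132). The first of these calls was lost without either wild-type library or without premalignant replicate 2, and the second was kept in every such fit. Its counterpart Cox6a1 was at 115 and 109, 216 and 211, and 273 and 205 CPM. As a share of the summed RPKM of the pair, Cox6a2 made up 17.5% and 17.7% in wild type, 4.85% and 2.15% in premalignant and 1.78% and 3.26% in malignant libraries. Exons of Cox6a2 overlap those of Itgad, so reads there may be shared between them.

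Cox6b2, known from testis (chromosome 7, 4703396 to 4704696), was at 5.77 and 3.85 CPM in wild type, 3.41 and 1.9 in premalignant and 0.335 and 0.466 in malignant libraries. No stage overlapped another, and the fall was called between premalignant and malignant cells (-2.74, SE 0.485, FDR 0.0479) and between wild type and malignant cells (-3.59, SE 0.497, FDR 0.0029). The call against premalignant cells was lost without any 1 of the 4 wild-type and premalignant libraries, and in the fit of those stages alone. Malignant libraries held 16 and 13 counts of it. Cox6b1, the common form, was at 102 and 83, 163 and 165, and 212 and 165 CPM. Cox4i2, the form known from lung (chromosome 2, 152579909 to 152590773), was near the limit of detection and passed the filter only through the wild-type libraries, so that its calls as lower carry no weight, with 18 and 10 counts in wild type, 3 and 0 in premalignant and 1 and 1 in malignant libraries. Premalignant cells thus had 11.6% of the wild-type level (exact 95% interval 2.25% to 37.4%) and malignant cells 8.72% (1.01% to 34.6%), over 28 counts in wild type. These intervals pool the 2 libraries of a stage and leave out the spread between animals, so they are no test of a difference between stages. Its fitted log2 fold changes (-3.06 and -3.35) depend on the prior count and are no bound, and both calls were lost without either wild-type library, the first also without premalignant replicate 2 and the second without malignant replicate 1. Cox7a1, the muscle form of subunit 7a, was at 0.717 to 1.51 CPM and was not called, while Cox7a2 rose (0.60 and 0.71), and Cox7b2, Cox8b, Cox8c and Ndufa4l2 held at most 2 counts in any library. Cox7b2 and Cox8c had 0 counts in all 6, which allows up to 0.0526 to 0.108 CPM a library, the level of 3 counts.

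Cox6a2 is also known from plasmacytoid dendritic cells, which carry B220, and a list of 7 genes of these cells was therefore added after its values had been seen. Their summed level was 2249 and 2216 CPM in wild type, 964 and 899 in premalignant and 476 and 613 in malignant libraries. Of the 7, 6 were called lower in premalignant and 7 in malignant cells than in wild type, against 20.3% and 24.3% of all genes tested. Spib, Tcf4 and Bst2 are expressed by B cells as well. Siglech, a defining gene of plasmacytoid dendritic cells, was at 204 and 138, 39 and 19.6, and 1.67 and 21.9 CPM. Siglech was the gene of the list not called in premalignant cells (log2 fold change -2.54, FDR 0.104). The part of such cells in the fall of Cox6a2 was not tested.

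**Figure D3:**
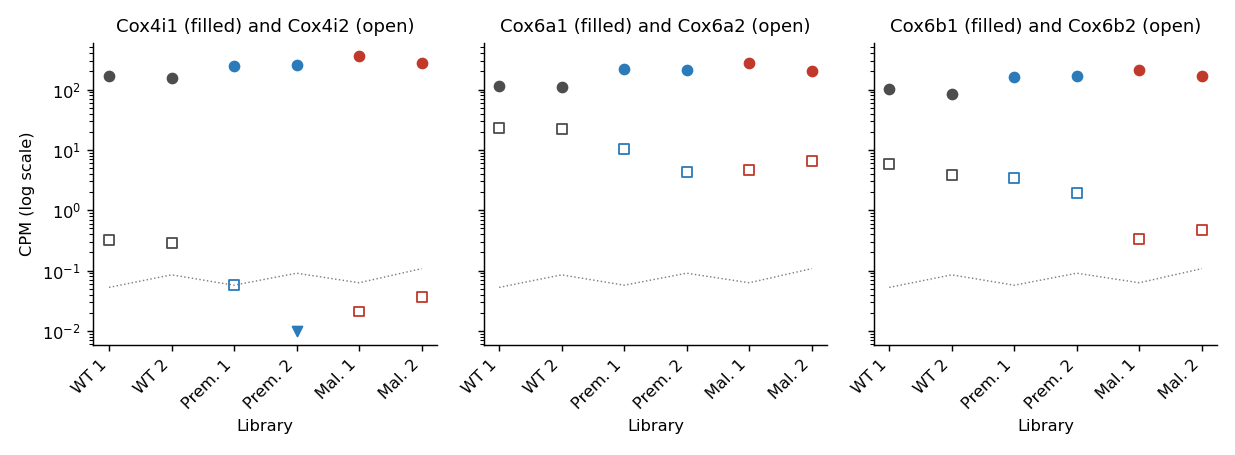
CPM on a log scale of the common form (filled circles) and the tissue isoform (open squares) of subunits 4, 6a and 6b of complex IV in each of the 6 libraries, with wild type in grey, premalignant in blue and malignant in red; the dotted line is the CPM of 3 counts, and the triangle marks a library with 0 counts of Cox4i2, drawn at 0.01. The common forms are at 83 CPM or more in every library and higher in the transgenic stages, whereas Cox6a2 and Cox6b2 are highest in wild type.

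The malignant libraries differed from each other more than the other replicates did. Over 80 nuclear members, the median absolute log2 difference between replicates was 0.22 for wild type, 0.050 for premalignant and 0.34 for malignant cells. Replicate 1 was the higher for 74 of the 80 in wild type (signed median 0.21), 48 in premalignant and 56 in malignant cells. Members of a library thus moved together in wild type, and counts of members are not counts of independent results. The differences between the malignant libraries followed the chromosome. Over other genes tested, the median log2 difference of malignant replicate 1 from replicate 2 was 0.55 on chromosome 1 and between -0.39 and -0.34 on chromosomes 3, 6, 10, 12, 15, 16 and 18. On 11 other chromosomes it was 0.05 to 0.13. All 6 members on chromosome 1 were higher in replicate 1, with a median of 0.84, and 21 of the 22 members on the chromosomes of the second kind were higher in replicate 2, with a median of -0.36. The 52 members on the 11 chromosomes had a median of 0.30, and 49 of them were above 0. Cox5b, on chromosome 1, was at 214 CPM in replicate 1 and 106 in replicate 2, against 139 and 123 in premalignant libraries. Ndufs1, a core subunit of complex I on the same chromosome, was at 216 CPM in malignant replicate 1 and 121 in replicate 2. The copy number of the DNA was not analysed here, and its part in these differences was not tested.

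**Figure D4:**
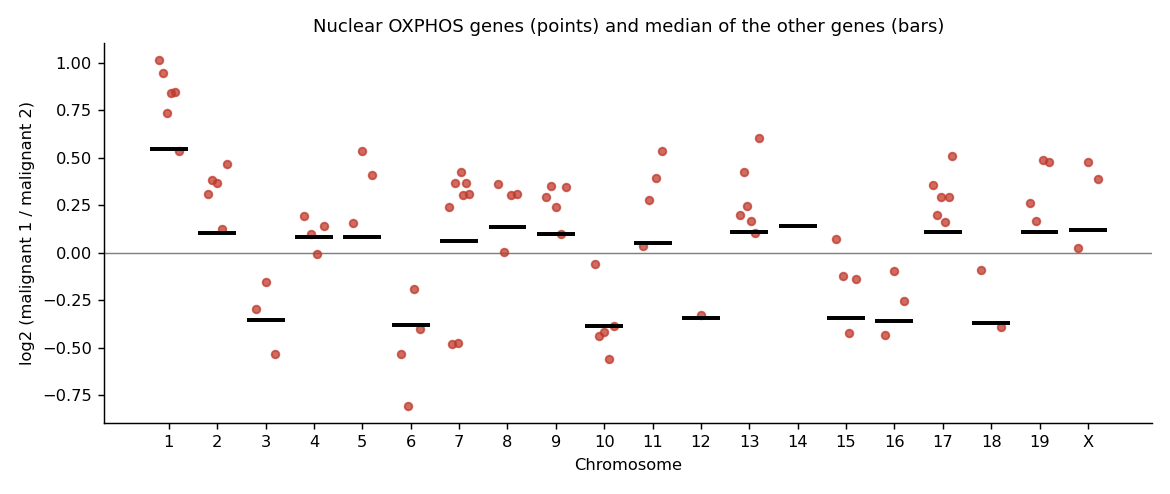
Log2 difference between the malignant libraries (replicate 1 over replicate 2) for each nuclear member (points) by chromosome, with the median of all other genes tested on that chromosome (black bars). Points and bars lie above 0 on chromosome 1, with a median of 0.84 for the members, and mostly below 0 on chromosomes 3, 6, 10, 12, 15, 16 and 18.

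Since these groups of chromosomes were set by shifts in the malignant libraries, the step from premalignant to malignant cells is given for each as a description. Its median log2 fold change was 0.26 for the 6 members on chromosome 1, 0.35 for the 22 members on the chromosomes higher in malignant replicate 2, and 0.04 for the 52 members elsewhere. The premalignant rise had medians of 0.69, 0.80 and 0.64 in the same groups. Over the same 52 members, malignant against wild type had a median of 0.77.

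Genes that build and run the system were taken from lists of 150 entries in all, and each entry was found in the annotation. List counts against wild type stand beside the shares of all genes tested. These were 19% called higher and 20.3% lower in premalignant cells, and 24.9% and 24.3% in malignant cells. Leaving out each library in turn kept 32 of the 72 calls as higher and 0 of the 7 as lower in premalignant cells, and 63 of 79 and 7 of 10 in malignant cells, with Myc counted among the higher ones. Carriers and subunits outside the rule on symbols moved with the members. All 6 tested rose in premalignant cells, among them Cycs, cytochrome c itself, which was at 66.6 and 52.4, 137 and 142, and 129 and 190.1 CPM, and Cyc1, the cytochrome c1 of complex III, at 96.8 and 101, 185 and 188, and 173 and 254 CPM. In malignant cells 5 were higher than in wild type. Atpif1, the inhibitor of ATP synthase run in reverse, was the exception, at 44.1 and 42.9, 60.9 and 67.2, and 42.9 and 53.3 CPM. Its malignant libraries overlapped wild type (0.14, FDR 0.511).

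Of 13 assembly factors of complex I, 9 rose in each comparison with wild type, none fell in premalignant cells and 1 fell in malignant cells. Of all genes, 19% and 20.3% were called higher and lower in premalignant cells, and 24.9% and 24.3% in malignant cells. Beside these shares the lists of 3 to 6 genes below say little. Ndufaf4 rose from 14.8 and 9.4 CPM to 52.4 and 49 and was at 60.8 and 54 in malignant libraries (2.06, SE 0.241, FDR 0.00331 in premalignant cells), whereas Ndufaf3 was at 19.7 and 19, 13.3 and 13.7, and 7.22 and 8.89 CPM and fell in malignant cells (-1.27, SE 0.215, FDR 0.00558). Of 4 assembly factors of complex II, edgeR called only Sdhaf2 in premalignant cells, as lower (-0.56, SE 0.144, FDR 0.0309), a call lost without wild type replicate 1, either premalignant library or malignant replicate 2, and Sdhaf1 was at the other end (0.48, FDR 0.225). In malignant cells 2 were higher and Sdhaf2 was lower than in wild type. Of 6 factors of complex III, 3 rose in each comparison, with 2900010M23Rik highest (1.29, FDR 0.00361) and Ttc19 lowest (-0.19, FDR 0.484) in premalignant cells. Of 18 factors of complex IV, 7 rose in premalignant and 11 in malignant cells, and none fell, with values from -0.27 for 2900053A13Rik to 1.25 for Fastkd2 in premalignant cells. Of 3 factors of complex V, 2 rose in premalignant and 3 in malignant cells, Tmem70 most (1.05) and Atpaf1 least (0.33). The list of complex IV included Pet112l, which serves mitochondrial translation as a tRNA amidotransferase subunit.

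A list of 21 genes covered the machinery of mitochondrial DNA and RNA. Of these, 14 rose and 1 fell in premalignant cells (median 0.73), and 14 rose and 2 fell in malignant cells against wild type (median 0.90). The shares of all genes called higher and lower were 19% and 20.3% in the first comparison, and 24.9% and 24.3% in the second. The helicase Peo1 was at 21.1 and 21.3, 72.4 and 77, and 66.4 and 87.4 CPM, the largest rise of the list (1.82, SE 0.175, FDR 0.0023). Lrpprc, which stabilises mitochondrial mRNA, was at 74.2 and 66.4, 181 and 193, and 229 and 242 CPM (1.41, SE 0.131, FDR 0.00213), with all stages apart. Tfam, which packages mitochondrial DNA and starts its transcription, rose by 0.80 (FDR 0.0408), a call lost without any 1 wild-type or premalignant library, and Polrmt, the mitochondrial RNA polymerase, by 0.54 (FDR 0.0898). Polrmt lost its call under the same fits. Mterfd3, a member of the mitochondrial termination factor family, fell (-0.74, FDR 0.0267).

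Of 10 regulators of mitochondrial biogenesis tested, 2 rose and 4 fell in premalignant cells, and 2 rose and 3 fell in malignant cells against wild type. Of all genes, 19% and 20.3% were called higher and lower in the first of these comparisons and 24.9% and 24.3% in the second, so the counts say little of the list. The genes that fell were Ppargc1a, Esrra, Gabpb1 and, in premalignant cells, Tcfeb. The premalignant call of Tcfeb was lost in 5 of 6 fits without 1 library, being kept only without wild type replicate 1. That of Esrra was lost without wild type replicate 2 or either premalignant library, and that of Gabpb1 without wild type replicate 1 or either premalignant library. In malignant cells the call of Gabpb1 was kept in every such fit, and that of Esrra in all but the fit without wild type replicate 2. The coactivators of the PGC-1 family split. Ppargc1b was at 1.47 and 1.93 CPM in wild type, 15.3 and 14 in premalignant and 23.6 and 25.8 in malignant libraries (3.11, SE 0.247, FDR 0.00179, and 3.87, SE 0.255, FDR 0.000584). Pprc1 was at 39.3 and 36.9, 186 and 141, and 206 and 199.7 CPM (2.10, SE 0.171, FDR 0.00182). Ppargc1a, in contrast, was at 3.79 and 4.73, 1.64 and 1.48, and 0.188 and 0.287 CPM and fell at each step (-1.45, SE 0.367, FDR 0.0298, then -2.73, SE 0.415, FDR 0.0343). The first call was lost without wild type replicate 2 or either premalignant library, and the second without any 1 wild-type or premalignant library. Its fall from wild type to malignant cells was kept in every such fit (-4.18, SE 0.429, FDR 0.00123). The stages of these 3 genes did not overlap. Ppargc1a rested on few counts in malignant libraries, where 3 counts are 0.0628 and 0.108 CPM, so the size of its fitted changes there is uncertain. Of the factors named for the NRF1, ETS and YY1 motif types, Nrf1 was at 87.2 and 80.2, 104 and 98.8, and 83.2 and 107 CPM (0.28, FDR 0.233), and Gabpa, the ETS subunit of GABP, at 140.1 and 109, 149 and 149, and 148 and 155 CPM (0.26, FDR 0.249). Yy1 was at 131 and 109, 139.9 and 129, and 115 and 172 CPM, its stages overlapped, and none of these 3 genes was called. The partner subunit Gabpb1 fell, from 119 and 99.7 to 71.9 and 73 and then 54.1 and 49.8 CPM. Exons of Gabpa overlap those of the member Atp5j, and reads there may be shared.

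**Figure D5:**
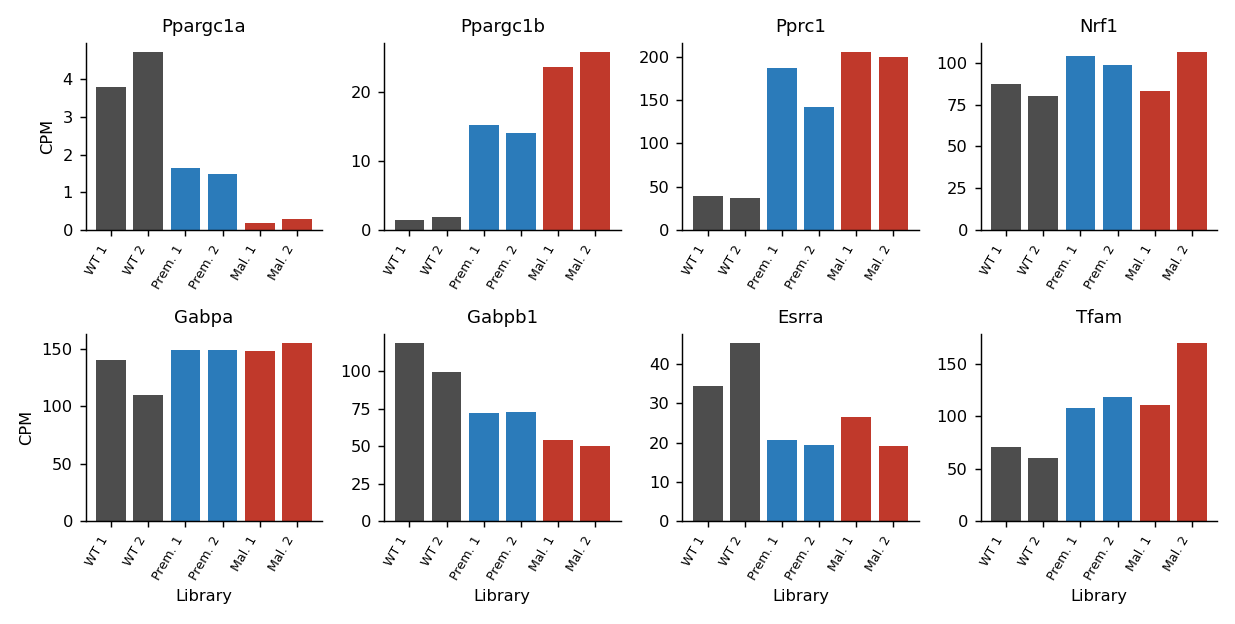
CPM of 8 regulators of mitochondrial biogenesis, 1 panel a gene and 1 bar a library, with wild type in grey, premalignant in blue and malignant in red, each axis starting at 0. Ppargc1b and Pprc1 are higher in all transgenic libraries, Ppargc1a and Gabpb1 are lower in all of them, and Nrf1 and Gabpa stay within 80.2 to 107 and 109 to 155 CPM.

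The supply of electrons and the exchange of substrates were covered by the remaining lists. Against wild type, 19% of all genes were called higher and 20.3% lower in premalignant cells, and 24.9% and 24.3% in malignant cells. Of 19 genes of the TCA cycle and pyruvate dehydrogenase, 11 rose in premalignant and 13 in malignant cells against wild type, and none fell. Suclg2, a subunit of succinyl-CoA synthetase, was highest, at 23.4 and 22.9, 75.4 and 77.7, and 103 and 135 CPM (1.72, SE 0.167, FDR 0.00234), and Idh2 was lowest (-0.02, FDR 0.916). Of 12 genes for coenzyme Q, 6 rose in premalignant cells and none fell, and 7 rose and 2 fell in malignant cells, with premalignant values from -0.67 for Adck3 (FDR 0.226) to 1.56 for Coq4 (FDR 0.0214). Of 18 carriers, porins and uncouplers tested, 11 rose and 1 fell in premalignant cells, and 9 rose and 1 fell in malignant cells. Slc25a5, an exchanger of ADP and ATP, was at 326 and 278, 746 and 761, and 1068 and 712 CPM, and the malignant libraries spanned the premalignant ones, while Slc25a11, the oxoglutarate carrier, fell (-0.58, FDR 0.0634). Between premalignant and malignant cells, 2 of the 130 listed genes tested were called, the porin Vdac2 as higher (262 and 274 to 521 and 407 CPM, 0.79, FDR 0.0681, a call lost without any 1 wild-type or premalignant library) and Ppargc1a as lower, against the 6.18% of all genes given above.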

How the data were processed

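Single-end RNA-seq reads of 6 polyA-selected, unstranded libraries were aligned by the authors to mm9 with TopHat and counted per Ensembl gene with HTSeq, and the deposited values are these whole-number counts, without normalization. CASAVA 1.8.2, Bowtie, HTSeq and DESeq are named in the submitters' processing notes. The HTSeq options are not given in the sources used here, so reads in overlapping exons, and in processed pseudogene copies of nuclear members, may be shared or dropped.

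Symbols and exon lengths came from GENCODE vM1 (NCBIM37). Genes were filtered with filterByExpr, scaled by TMM and tested with the quasi-likelihood test of edgeR 4.0.16 (R 4.3.3), with Benjamini-Hochberg adjustment over all genes tested (FDR). All 6 libraries entered 1 fit. Python 3.11.15, pandas 2.3.3 and matplotlib 3.10.9 made the summaries and plots. DESeq2 1.42.0, upper-quartile scaling, other filters and thresholds, a replicate block and the removal of each library were alternatives. The scripts were tested on simulated data. No replicate libraries were duplicates of each other. Per the study's methods the replicates were separate animals.

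The members and gene lists were chosen with earlier results of these data known. Named genes are the mitochondrially encoded members, per complex the member of highest RPKM and those with the highest and lowest fold change from wild type, members called lower or called between premalignant and malignant cells, tissue isoforms, set regulators, and per list the highest and lowest. Other genes were named after their values were seen.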

Additional observations from a re-analysis of the deposited data

How the results depend on the processing

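The rise of the nuclear members in both comparisons with wild type kept its direction under every alternative run, and its size and number of calls depended on thresholds, scaling and single libraries. With a log2 fold change of at least 1, 16 nuclear members in place of 61 were called higher in premalignant cells and 28 in place of 61 in malignant cells, and 0 mitochondrially encoded members were called in either. Upper-quartile scaling moved the median of all genes from -0.08 to -0.17 (premalignant against wild type) and from -0.02 to -0.19 (malignant against wild type). It left 4 of 7 and 3 of 6 mitochondrially encoded calls, and gave malignant medians of 0.71 for nuclear and 0.34 for mitochondrially encoded members. At least 10 counts in every library gave 1 nuclear member lower and 4 mitochondrially encoded members higher in premalignant cells, and a malignant nuclear median of 0.78. An FDR of 0.05 gave 4 mitochondrially encoded members higher in premalignant cells, and DESeq2 gave 1 nuclear member lower. Without a filter, 1 nuclear member was higher in malignant than in premalignant cells, and with only the stages compared 0 were lower there and 3 mitochondrially encoded members were higher in malignant cells than in wild type. Members on chromosomes without a shift had a malignant median of 0.76. The nuclear share of premalignant counts was 1.18% of counts off the mitochondrial genome (1.14% of all counts). Without overlapping genes, the mitochondrially encoded share was 2.44% in wild type and 2.92% in premalignant cells.

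Leaving out libraries gave ranges of 21 to 63 nuclear members higher, 0 to 2 lower, a nuclear median of 0.58 to 0.81, 0 to 10 mitochondrially encoded members higher and their median of 0.42 to 0.63 (premalignant against wild type). The ranges were 0 to 6, 0 to 1 and -0.048 to 0.22 for nuclear members and a median of -0.24 to 0.34 for mitochondrially encoded members (malignant against premalignant), where the value of -0.048 came without malignant replicate 1. They were 49 to 69, 2 to 3 and 0.70 to 0.99 for nuclear members, and 2 to 10 and 0.43 to 0.68 for mitochondrially encoded members (malignant against wild type). The causes of these changes were not tested, beyond the smaller number of libraries or genes that some alternatives hold by construction.

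With the replicate number as a replicate block, 60 nuclear members were higher in each comparison with wild type, and 5 and 6 mitochondrially encoded members. Same-numbered libraries deviated together over all genes (correlations of 0.51, 0.19 and 0.26), over members in 1 of 3 pairs of stages, and no label says what a number shares, so the numbers were not taken as pairs. Of 3209 values of single named genes under alternatives, 2954 stayed on their side of the threshold, 53 gained a call, 202 lost it and 0 reversed.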
